A study of Mus musculus with 24 samples.

Results

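The IL-12 family cytokine subunits are the genes Il12a, Il12b, Il23a, Il27 and Ebi3, taken by name from a count table of 18919 genes. All 5 genes were in the table, each had at least 1 count, and 4 of the 5 passed the filter on low counts with which 13294 genes were tested; Il12a did not pass it. They were measured by RNA-seq in primary microglia, which are the brain's own macrophages, prepared from mice of age p0. CD14 KO cells came from the strain B6.129S4-Cd14tm1Frm/J, which carries a germline targeted allele of Cd14, and WT cells from C57BL/6. Cells of each genotype were given mouse fibronectin at 100 µg/ml (FN), or were left untreated, or received Re-LPS at 0.1 ng/ml or 10 ng/ml, in each case for 3 h. Each of the 8 groups held 3 libraries, described in the study's design as independent preparations of cells, and no other allele or agent is named for any group. The comparisons ask how far the response of these genes to a TLR4 agonist, LPS, and to FN depends on CD14.

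The family's cytokines are heterodimers of an alpha chain and a beta chain that come from separate genes. Il12b encodes p40, the beta chain of both IL-12 and IL-23, and pairs with p35, encoded by Il12a, in IL-12 and with p19, encoded by Il23a, in IL-23. Il27 encodes p28, the alpha chain of IL-27, whose beta chain is encoded by Ebi3, and the EBI3 protein can also pair with p35. Macrophages and dendritic cells make these cytokines after Toll-like receptor signals, and they steer T cells towards interferon-gamma or interleukin-17 production or, for IL-27, also restrain them. CD14 is a surface co-receptor that hands LPS to the complex of TLR4 and MD-2.

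Library totals lay between 14939019 and 22143774 counts. Cd14 itself had 2.14 to 6.37 CPM (counts scaled to a common library total) in the 12 KO libraries and 338 to 5329 CPM in the 12 WT libraries, so every library went with its label. The ribosomal precursor Rn45s took 8.21% of the counts in KO cells with LPS 0.1 ng/ml, replicate 2, 5.92% in WT cells with LPS 10 ng/ml, replicate 3, and 3.62% in WT cells with LPS 0.1 ng/ml, replicate 3. All 12 microglial markers passed the filter, and their sum was 7742 to 10930 CPM. Of 9 dendritic-cell markers, 8 were in the table and 5 passed the filter, and their sum moved with the stimuli: it was 16.8 to 22.8 CPM in WT cells with FN and 4.45 to 5.30 CPM in untreated WT cells, and 12.3 to 18.5 CPM in KO cells with LPS 10 ng/ml and 3.38 to 6.94 CPM in untreated KO cells. Xcr1, with up to 16.5 CPM, and Zbtb46, with up to 7.996 CPM, made up most of it, while Flt3, Siglech and Clec9a did not exceed 0.184, 0.296 and 0.444 CPM. The sum of 9 vascular and fibroblast markers, 4 of which passed the filter, was 24.2 to 55.3 CPM in WT cells with LPS 10 ng/ml and 4.52 to 10.7 CPM in untreated WT cells; Kdr and Pdgfrb carried it, and Cldn5 did not exceed 0.0918 CPM. The sums of the other marker lists were 0.673 to 2.50 CPM for other leukocytes, 146 to 483 CPM for monocytes and border macrophages, 11.7 to 48.0 CPM for astrocytes, 87.8 to 361 CPM for the oligodendrocyte lineage and 1.63 to 52.0 CPM for neurons, over all libraries. The part of these genes in the results was not tested, and in such bulk samples fewer cells of a type and less RNA per cell cannot be told apart.

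Il12b lies on chromosome 11 (GRCm38, 44400063 to 44414033, plus strand). Its promoter is shown because Il12b encodes the chain that IL-12 and IL-23 share; it is the 250 bases before the RefSeq start, chr11:44399813-44400062, plus strand, GRCm38.p6, with capitals on a kB half-site type match (AATTCCCC, bases -129 to -122) and a C/EBP-type match (TTGCAAT, bases -93 to -87).
Il12b promoter: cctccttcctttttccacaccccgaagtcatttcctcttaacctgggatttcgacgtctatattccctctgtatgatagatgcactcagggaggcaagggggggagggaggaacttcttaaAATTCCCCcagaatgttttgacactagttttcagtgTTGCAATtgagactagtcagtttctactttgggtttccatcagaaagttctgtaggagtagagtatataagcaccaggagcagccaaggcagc
These 2 motifs were added after a fixed search had found in the window of 250 bases before to 50 bases after the start only an Ets-type match (AGGAAG, on the minus strand at -246 to -241), and 0.846% and 2.22% of 32851 RefSeq promoters of that length held them on either strand. Ets-type matches stood in 35.4%. No match was found for the kB type GGGNNNTTC, the ISRE type GAAANNGAA, the AP-1 type TGANTCA or TATAAA, which 14%, 8.56%, 7.81% and 13.6% of promoters held. A match is a description of letters and not a measured binding site.

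In the 3 KO libraries with FN, Il12b had 63.2, 32.3 and 20.9 CPM, and in the 3 untreated KO libraries 2.46, 2.82 and 2.16 CPM. KO cells with LPS had 6.33, 7.82 and 4.33 CPM at 0.1 ng/ml and 1882, 964 and 1048 CPM at 10 ng/ml. The KO libraries thus fell into 4 levels that did not overlap, with untreated cells lowest and LPS 10 ng/ml highest. The difference between untreated KO cells and KO cells with LPS 0.1 ng/ml was not called in the tests below. WT cells with FN had 3227, 2708 and 1667 CPM and untreated WT cells 3.33, 1.42 and 1.33 CPM. WT cells with LPS had 284, 204 and 33.6 CPM at 0.1 ng/ml and 2919, 2574 and 1727 CPM at 10 ng/ml. FN and the higher dose of LPS gave overlapping values in WT cells, and replicate 3 at 0.1 ng/ml, one of the libraries rich in Rn45s, lay below the other two. In the order of group means, WT with FN, WT with LPS 10 ng/ml and KO with LPS 10 ng/ml overlapped their neighbours, as did WT with LPS 0.1 ng/ml and KO with FN, and untreated KO and untreated WT cells.

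**Figure D1:**
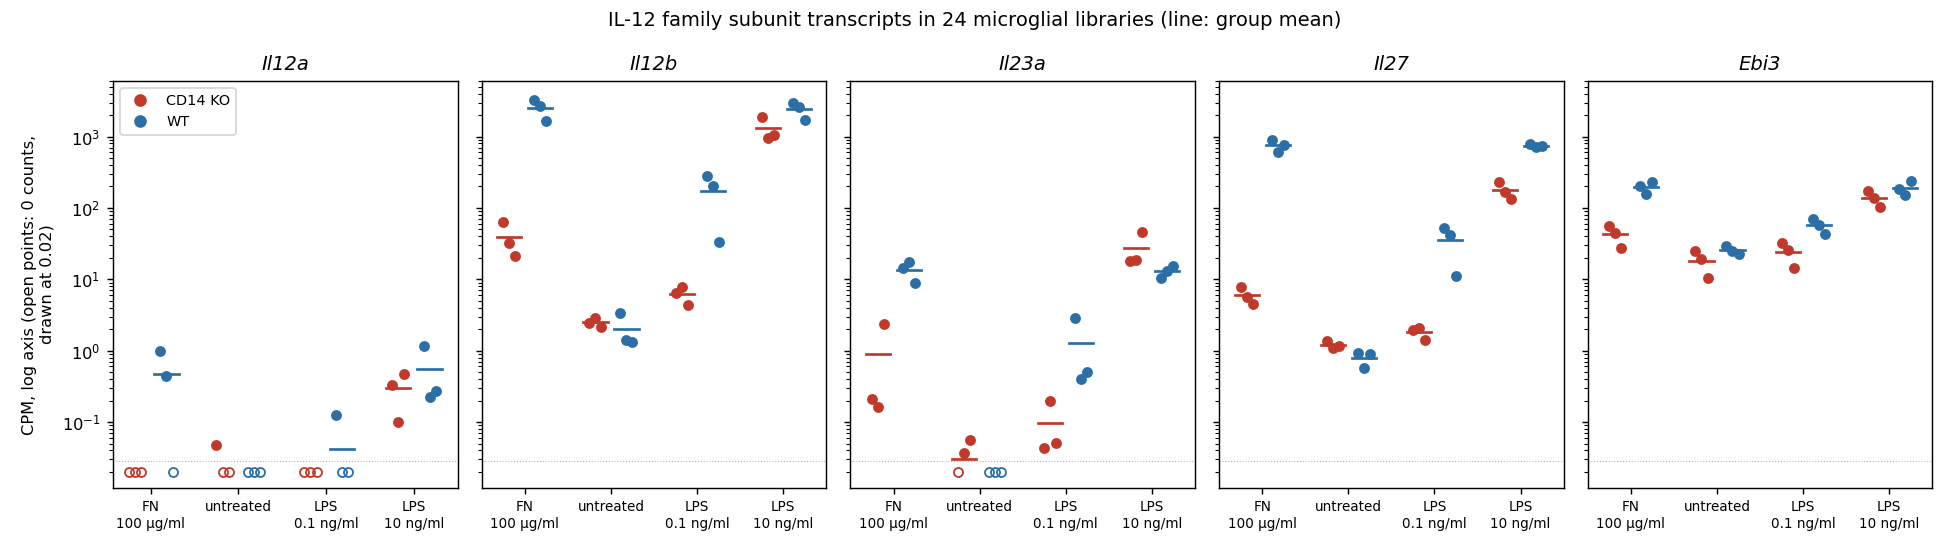
Level of each subunit gene, as CPM on a log axis, in every library, by condition, with CD14 KO in red left of WT in blue; points are libraries, lines are means of 3 libraries, and open points stand for 0 counts and are drawn at 0.02. KO cells with FN had 20.9 to 63.2 CPM of Il12b and WT cells with FN 1667 to 3227 CPM, while with LPS 10 ng/ml the KO and WT values of Il12b and Ebi3 overlapped.

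Il23a, the alpha chain of IL-23, lies on chromosome 10 (128296139 to 128298752, minus strand) and was scarcer than Il12b, with 12.4 CPM per kilobase of exon against 660 CPM for Il12b in KO cells with LPS 10 ng/ml. KO cells with FN had 4, 4 and 39 counts (0.209, 0.163 and 2.34 CPM) and untreated KO cells 0, 1 and 1 counts. KO cells with LPS 0.1 ng/ml had 1, 4 and 1 counts, and those with LPS 10 ng/ml 278, 370 and 687 counts (18.1, 18.7 and 46.6 CPM). Replicate 3 of the KO cells stood above the others with both FN and LPS 10 ng/ml. WT cells with FN had 208, 238 and 133 counts (14.5, 17.3 and 8.95 CPM), and untreated WT cells had none in any library. WT cells with LPS 0.1 ng/ml had 46, 7 and 10 counts (2.90, 0.398 and 0.503 CPM), and those with LPS 10 ng/ml 125, 176 and 168 counts (10.3, 13.2 and 15.4 CPM). Il23a was the one member whose highest group mean was in KO cells, with LPS 10 ng/ml, and that group did not overlap the next, WT with FN.

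Il12a, the alpha chain of IL-12, lies on chromosome 3 (68690644 to 68698547, plus strand) and was near the limit of detection. It had 5, 2 and 7 counts in KO cells with LPS 10 ng/ml, 14, 6 and 0 counts in WT cells with FN, and 14, 3 and 3 counts in WT cells with LPS 10 ng/ml. WT cells with LPS 0.1 ng/ml had 2, 0 and 0 counts, untreated KO cells 1, 0 and 0 counts, and the other 3 groups had none. A total of 0 counts in the 3 KO libraries with FN allows up to 0.0497 CPM, taking 3 counts over the group as the limit. Counting error alone is covered by such limits and by the intervals of count ratios below.

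Il27, the alpha chain of IL-27, lies on chromosome 7 (126589010 to 126594941, minus strand). KO cells with FN had 7.69, 5.70 and 4.50 CPM and untreated KO cells 1.35, 1.10 and 1.16 CPM. KO cells with LPS had 1.92, 2.07 and 1.43 CPM at 0.1 ng/ml and 231, 166 and 135 CPM at 10 ng/ml. The KO groups did not overlap one another, though untreated cells and LPS 0.1 ng/ml were not called apart in the tests below. WT cells with FN had 884, 606 and 771 CPM and untreated WT cells 0.935, 0.568 and 0.888 CPM. WT cells with LPS had 52.5, 42.0 and 11.2 CPM at 0.1 ng/ml and 786, 725 and 731 CPM at 10 ng/ml. FN and LPS 10 ng/ml overlapped in WT cells, and every other pair of neighbours in the order of the 8 groups was separate. Untreated KO cells lay above untreated WT cells, a difference that was not called in the tests below. Of the exon bases of Il27, 103 (10.1%) overlap those of Apobr on the other strand, and no source used here states that strand was used in counting, so reads from the shared bases cannot be told apart. Apobr itself had 541 ± 163 CPM in WT cells with LPS 10 ng/ml and 129 ± 22.6 CPM in untreated WT cells (SD, n = 3 each).

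Ebi3, the beta chain of IL-27, lies on chromosome 17 (55952640 to 55957022, plus strand). Its promoter is shown because it is the other member with a strong response and a RefSeq promoter; it is the 250 bases before the start, chr17:55952373-55952622, plus strand, GRCm38.p6, with capitals on a match to the general NF-kB consensus at -44 to -35, which reads as a match on both strands.
Ebi3 promoter: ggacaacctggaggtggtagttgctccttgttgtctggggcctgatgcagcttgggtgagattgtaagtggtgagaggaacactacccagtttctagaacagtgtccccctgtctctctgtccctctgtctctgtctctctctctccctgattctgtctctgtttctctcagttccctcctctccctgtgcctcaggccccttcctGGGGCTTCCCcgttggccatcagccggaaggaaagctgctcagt
A second match to that consensus lay after the start, at bases 14 to 23, and 8.46% of promoters held at least 1. An Ets-type match on the minus strand at -50 to -45 adjoins the first, with no shared base. Of the 2 promoters of Il12a, 1 held a C/EBP-type match at -156 to -150, and neither held any of the other motifs.

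Per kilobase of exon, Ebi3 averaged 15.8 CPM in untreated KO cells and 22.2 CPM in untreated WT cells, and the other 4 members averaged at most 1.26 CPM there. KO cells with FN had 56.2, 45.1 and 27.7 CPM and untreated KO cells 25.3, 19.3 and 10.3 CPM. KO cells with LPS had 32.7, 25.9 and 14.5 CPM at 0.1 ng/ml and 172, 138 and 102 CPM at 10 ng/ml. Only LPS 10 ng/ml gave KO values that lay apart from all other KO groups. WT cells with FN had 200, 157 and 228 CPM and untreated WT cells 29.0, 24.9 and 22.8 CPM. WT cells with LPS had 69.3, 57.8 and 43.5 CPM at 0.1 ng/ml and 184, 153 and 237 CPM at 10 ng/ml. In WT cells the order was untreated, LPS 0.1 ng/ml, then LPS 10 ng/ml and FN together. Of the exon bases of Ebi3, 270 (23.4%) overlap the antisense gene Gm16712, which is not in the count table, and reads from both cannot be told apart there.

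In WT cells, FN raised all 4 tested members, where 23.7% of the genes tested were called higher. Il12b rose 1251-fold (log2 10.29 ± 0.82 SE, adjusted p = 7.92e-09) and Il27 941-fold (9.88 ± 0.53, adjusted p = 1.34e-10), while Ebi3 rose 7.61-fold (2.93 ± 0.35, adjusted p = 1.36e-06) in edgeR's quasi-likelihood test with Benjamini-Hochberg adjustment over all genes. Il23a had 579 counts with FN and 0 untreated, a ratio of at least 221 by the 95% counting interval (adjusted p = 1.37e-05 by edgeR). Il12a, tested only with no filter on low counts, had 20 counts with FN and 0 untreated, with 14 of the 20 in replicate 1. Its ratio was at least 6.98 by the same kind of interval (adjusted p = 0.0168 by edgeR).

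In KO cells, FN also raised all 4 tested members, where 9.23% of genes were called higher, but by less. Il12b rose 15.6-fold (log2 3.96 ± 0.63, adjusted p = 2.19e-04), Il27 4.94-fold (2.31 ± 0.41, adjusted p = 6.17e-04) and Ebi3 2.35-fold (1.23 ± 0.34, adjusted p = 0.0156) by edgeR. Il23a had 47 counts with FN and 2 untreated, a ratio of 25.7 with a 95% counting interval of 6.73 to 219 (adjusted p = 0.0186). That call rested on replicate 3 with FN, without which the log2 change was 2.36 (adjusted p = 0.248 by edgeR), and the Ebi3 call was lost without FN replicate 1 or untreated replicate 3 (adjusted p = 0.0862 and 0.0723). Without untreated replicate 1 or 2, Il23a had an adjusted p of 0.0746 or 0.0740 by edgeR, and limma with a pseudocount of 1 gave 0.302. A fit on these 2 groups alone called 2 of the members, with 0.109 for Ebi3.

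LPS at 10 ng/ml raised all 4 tested members in both genotypes, where 21.2% of genes were called higher in KO cells and 23.3% in WT cells. In KO cells Il12b rose 520-fold (log2 9.02 ± 0.78, adjusted p = 4.54e-08), Il27 147-fold (7.20 ± 0.48, adjusted p = 2.41e-09) and Ebi3 7.498-fold (2.91 ± 0.35, adjusted p = 2.63e-06) by edgeR. Il23a in KO cells had 1335 counts against 2 untreated, a ratio of 882 with a 95% counting interval of 244 to 7294 (adjusted p = 1.39e-05 by edgeR; without replicate 3 the fitted log2 change was 8.95 in place of 9.54). In WT cells Il12b rose 1189-fold (10.22 ± 0.82, adjusted p = 8.57e-09), Il27 933-fold (9.87 ± 0.53, adjusted p = 1.45e-10) and Ebi3 7.47-fold (2.90 ± 0.35, adjusted p = 1.50e-06). Il23a in WT cells had 469 counts against 0 untreated, a ratio of at least 211 by the 95% counting interval (adjusted p = 1.50e-05 by edgeR). With no filter, Il12a had 14 counts with LPS and 1 untreated in KO cells (ratio 18.5, 95% counting interval 2.82 to 783, adjusted p = 0.0954 by edgeR). In WT cells it had 20 with LPS and 0 untreated, a ratio of at least 8.23 by the counting interval (adjusted p = 0.0139 by edgeR).

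At 0.1 ng/ml the genotypes gave different calls. None of the 4 members was called in KO cells, where 0.722% of genes were called higher; Il12b was 2.47-fold higher (log2 1.304 ± 0.59, unadjusted p = 0.0416, adjusted p = 1 by edgeR), and Il12b and Il27 lay above untreated cells in every library. DESeq2 and limma called none of them either. All 4 rose in WT cells, where 9.94% of genes were called higher. Il12b rose 85.8-fold (log2 6.42 ± 0.71, adjusted p = 3.11e-06), Il27 44.0-fold (5.46 ± 0.46, adjusted p = 1.60e-07) and Ebi3 2.22-fold (1.15 ± 0.33, adjusted p = 0.0233). Il23a had 63 counts against 0, a ratio of at least 18.9 by the 95% counting interval (adjusted p = 0.00376 by edgeR). Of the 63 counts, 46 were in replicate 1, without which the fitted log2 change was 6.06 against 7.51 with it. The Ebi3 call in WT cells was lost without LPS replicate 1 or 2 or untreated replicate 2 or 3, with adjusted p from 0.0565 to 0.115 by edgeR, and with library totals as the scale (0.0526). Limma with a pseudocount of 1 did not call Il23a (0.115).

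**Figure D2:**
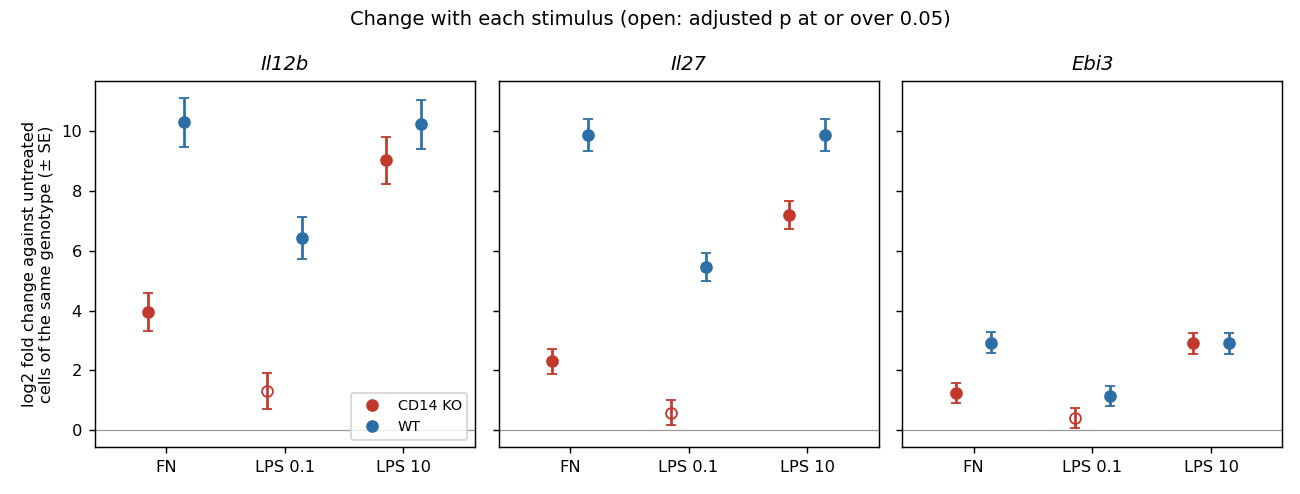
Log2 fold change of Il12b, Il27 and Ebi3 with FN (100 µg/ml) and with LPS (0.1 and 10 ng/ml) against untreated cells of the same genotype, CD14 KO in red left of WT in blue; points are edgeR estimates from 3 libraries a group, bars are SE, and open points were not called. Ebi3 rose by 2.91 in KO cells and by 2.90 in WT cells with LPS 10 ng/ml, whereas Il27 rose by 7.20 in KO cells and by 9.87 in WT cells.

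The rise between the doses was called for all 4 members in both genotypes, where 18.3% of genes in KO cells and 14.8% in WT cells were called higher at 10 ng/ml than at 0.1 ng/ml (adjusted p at most 3.82e-05 in KO cells and 0.00758 in WT cells by edgeR). In KO cells Il12b was 210-fold, Il27 97.7-fold and Ebi3 5.64-fold higher at 10 ng/ml (log2 7.72 ± 0.74, 6.61 ± 0.46 and 2.50 ± 0.35). In WT cells the same genes were 13.9-fold, 21.2-fold and 3.37-fold higher (log2 3.79 ± 0.61, 4.41 ± 0.41 and 1.75 ± 0.34). Il23a had 1335 counts at 10 ng/ml and 6 at 0.1 ng/ml in KO cells, a ratio of 282 with a 95% counting interval of 129 to 770. Its ratio in WT cells was 10.9, with an interval of 8.38 to 14.4, and the WT call was lost without the 3 libraries rich in Rn45s (log2 2.84, adjusted p = 0.0890 by edgeR). Without WT replicate 1 at 0.1 ng/ml its log2 difference was 4.82 in place of 3.37. In KO cells it was 7.49 without replicate 3 at 10 ng/ml, and 9.02 without replicate 2 at 0.1 ng/ml or without the libraries rich in Rn45s, in place of 8.08.

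Between untreated KO and WT cells, none of the 4 members was called, where 0.00752% of genes were, in either direction. Il27 had 1.20 ± 0.13 CPM in untreated KO cells and 0.797 ± 0.200 CPM in untreated WT cells (SD, n = 3 each). Its log2 difference was 0.59, with a 95% interval of -0.38 to 1.57. The intervals were -1.004 to 1.61 for Il12b and -1.19 to 0.22 for Ebi3.

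At 0.1 ng/ml all 4 members were lower in KO than in WT cells, where 6.33% of genes were called lower. Il12b was 28.2-fold lower (log2 -4.82 ± 0.65, adjusted p = 7.28e-05), Il27 19.4-fold lower (-4.28 ± 0.42, adjusted p = 4.10e-06) and Ebi3 2.33-fold lower (-1.22 ± 0.34, adjusted p = 0.0265) by edgeR. Il23a had 6 counts in KO cells and 63 in WT cells, a ratio of 0.0801 with a 95% counting interval of 0.0283 to 0.184 (adjusted p = 0.0438). The Il23a call was lost in 14 of 24 fits that left out 1 library, with log2 -2.17 (adjusted p = 0.353) without WT replicate 1 and -4.56 (adjusted p = 0.0679) without KO replicate 2, and the Ebi3 call in 4 of 24, all by leaving out a library of these groups. The Il23a call was also lost with library totals (adjusted p = 0.0502) and no filter (0.0663) by edgeR, and in limma with a pseudocount of 1 (0.219). On the 2 groups alone 2 members were called, with an adjusted p of 0.134 for Ebi3 by edgeR. Without the 3 libraries rich in Rn45s Il12b fell by 5.51 and Il23a by 4.94 on the log2 scale.

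At 10 ng/ml the difference was called for Il27 alone among the 4 members, where 7.85% of genes were called lower in KO than in WT cells. Il27 was 4.21-fold lower (log2 -2.08 ± 0.37, adjusted p = 6.66e-04 by edgeR), with 135 to 231 CPM in KO cells and 725 to 786 CPM in WT cells. Il12b differed by -0.89 (95% interval -2.06 to 0.27) and Ebi3 by -0.48 (-1.18 to 0.22), and their libraries overlapped. Il23a lay the other way, with 18.1 to 46.6 CPM in KO cells and 10.3 to 15.4 CPM in WT cells, a log2 difference of 1.10 (-0.59 to 2.79) that was not called (adjusted p = 0.451). On the deposited normalized values with a pseudocount of 10, limma called this difference (log2 0.64, adjusted p = 0.0271).

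With FN all 4 members were lower in KO than in WT cells, where 17.6% of genes were called lower. Il27 was 126-fold lower (log2 -6.98 ± 0.46, adjusted p = 7.49e-09), Il12b 65.2-fold lower (-6.03 ± 0.68, adjusted p = 1.25e-06) and Ebi3 4.53-fold lower (-2.18 ± 0.34, adjusted p = 5.26e-05) by edgeR. Il23a had 47 counts in KO cells and 579 in WT cells, a ratio of 0.0577 with a 95% counting interval of 0.0419 to 0.0778 (adjusted p = 0.00231); without KO replicate 3 its log2 difference was -6.15 in place of -3.94. Il12a had 0 counts in KO cells and 20 in WT cells, a ratio of at most 0.144 by the counting interval (adjusted p = 0.0231 with no filter).

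**Figure D3:**
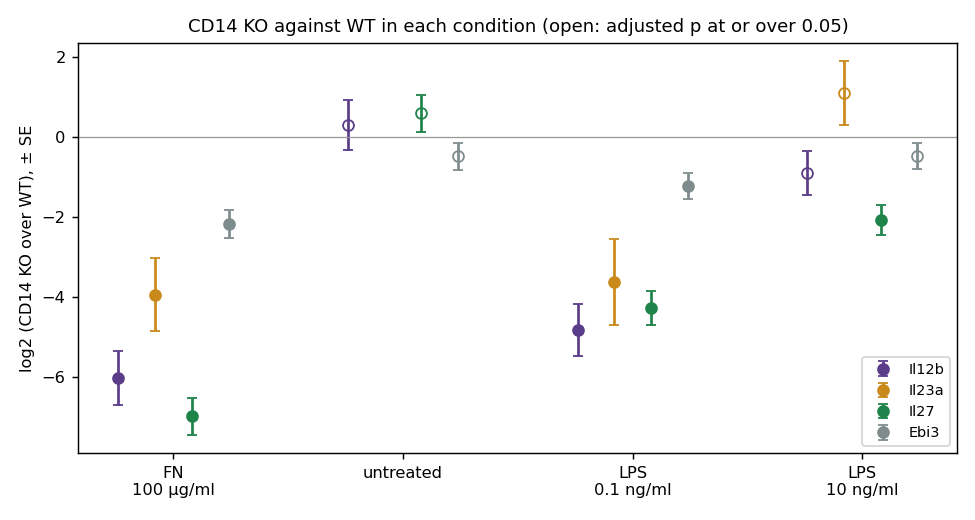
Log2 ratio of CD14 KO over WT for 4 subunit genes in each condition; points are edgeR estimates from 3 libraries a group, bars are SE, open points were not called, and Il23a is left out in untreated cells, where it had 2 and 0 counts. Il27 lay at -2.08 with LPS 10 ng/ml, where Il12b, Il23a and Ebi3 were not called, and at -6.98 with FN.

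Whether the genotypes responded differently was tested directly, as the KO change with a stimulus less the WT change. With LPS 0.1 ng/ml the difference was called lower for Il12b (log2 -5.12 ± 0.87, adjusted p = 0.0021) and Il27 (-4.87 ± 0.61, adjusted p = 2.41e-04) by edgeR, where 2.11% of genes were called lower. Without the 3 libraries rich in Rn45s Il12b stood at -5.81. It was not called for Ebi3 (-0.74, 95% interval -1.73 to 0.26). With LPS 10 ng/ml it was called for Il27 alone (-2.67 ± 0.58, adjusted p = 0.0105), where 3.32% of genes were called lower, while Il12b stood at -1.19 (-2.94 to 0.56) and Ebi3 at 0.0047 (-0.96 to 0.97). With FN it was called for Il27 (-7.57 ± 0.62, adjusted p = 5.47e-07), Il12b (-6.33 ± 0.88, adjusted p = 3.64e-05) and Ebi3 (-1.69 ± 0.47, adjusted p = 0.0129), where 11.3% of genes were called lower. For Il23a the difference could be compared only loosely, because untreated WT cells had no count: with FN its adjusted p was 0.129 by edgeR, 0.0175 by DESeq2 and 6.30e-04 by limma. The Ebi3 call with FN was lost when library totals alone set the scale (log2 -1.06, adjusted p = 0.0606), a scaling that moved the median of all genes in that comparison by 0.65.

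FN and LPS 10 ng/ml were set against each other within a genotype. In KO cells all 4 members were lower with FN, where 9.43% of genes were called lower: Il12b 33.4-fold (log2 -5.06 ± 0.65, adjusted p = 4.18e-05), Il27 29.7-fold (-4.89 ± 0.42, adjusted p = 1.68e-06) and Ebi3 3.19-fold (-1.67 ± 0.34, adjusted p = 0.002) by edgeR. Il23a had 47 counts with FN and 1335 with LPS (ratio 0.0291, 95% counting interval 0.0213 to 0.0390), and without FN replicate 3 its log2 difference was -7.18, and without LPS replicate 3 -4.37, in place of -4.97. On the 2 groups alone its adjusted p was 0.0524. In WT cells none of the 4 was called by edgeR, DESeq2 or limma, and 0% of genes were called by edgeR, with 105 genes at an unadjusted p under 0.05. The 95% intervals of the log2 difference in WT cells were -1.08 to 1.23 for Il12b, -1.61 to 1.74 for Il23a, -0.74 to 0.76 for Il27 and -0.67 to 0.72 for Ebi3. FN against LPS 10 ng/ml shares no library with the untreated groups, but each stimulated group also enters the comparisons above.

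The chains of one cytokine were compared within a library per kilobase of exon, where both genes had at least 10 counts unless lower counts are given. The ratio of Ebi3 to Il27 was 2.65 ± 0.18 on the log2 scale in KO cells with FN, and 3.66 ± 0.60, 3.51 ± 0.37 and -0.54 ± 0.09 in KO cells untreated, with LPS 0.1 ng/ml and with LPS 10 ng/ml (SD, n = 3 each). In WT cells it was -2.13 ± 0.19 with FN, and 4.86 ± 0.39, 0.76 ± 0.88 and -2.16 ± 0.32 untreated, with LPS 0.1 ng/ml and with LPS 10 ng/ml. Ebi3 thus exceeded Il27 in every untreated library, and Il27 exceeded Ebi3 in every library with LPS 10 ng/ml and in WT cells with FN, but in no KO library with FN. WT replicate 3 with LPS 0.1 ng/ml had 1.78, where replicates 1 and 2 had 0.22 and 0.28. Il12b exceeded Il23a by 6.89, 5.88 and 4.68 in KO cells with LPS 10 ng/ml and by 8.34, 7.80 and 6.999 in WT cells with LPS 10 ng/ml, ranges that did not overlap. With FN the excess was 8.43, 7.83 and 3.35 in KO cells and 7.99, 7.48 and 7.73 in WT cells. KO replicates 1 and 2, with 4 counts of Il23a each, lay above or within the WT range, and KO replicate 3, with 39 counts, lay below it. Il12b exceeded Il12a by 11.5 in WT replicate 1 with FN and by 11.1 in WT replicate 1 with LPS 10 ng/ml, the libraries in which Il12a was highest, with 14 counts. On 3 to 6 counts of Il12a the excess was 12.4 in WT replicate 2 with FN and 13.3 and 12.4 in WT replicates 2 and 3 with LPS 10 ng/ml. In KO cells with LPS 10 ng/ml it was 12.3 in replicate 1, on 5 counts, and 10.9 in replicate 3, on 7 counts. These ratios are of transcripts and were not tested.

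**Figure D4:**
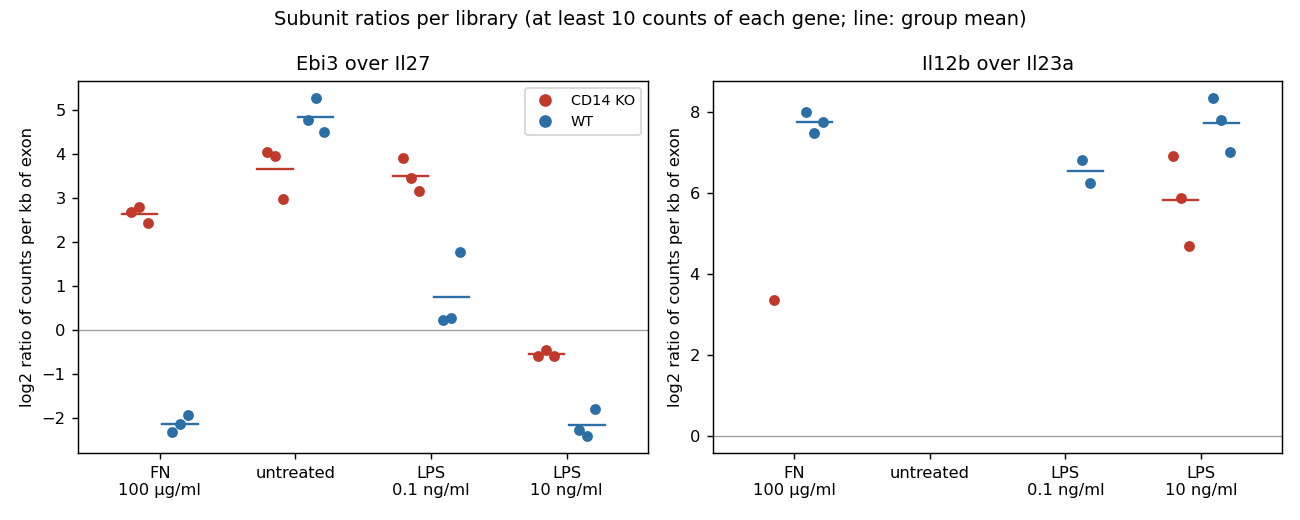
Log2 ratio of counts per kilobase of exon, Ebi3 over Il27 (left) and Il12b over Il23a (right), in each library with at least 10 counts of both genes (1 library of KO cells with FN on the right), CD14 KO in red left of WT in blue; lines are group means. With FN the ratio of Ebi3 to Il27 was 2.45 to 2.81 in KO cells and -2.32 to -1.93 in WT cells.

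Across the 24 libraries the members were compared by a distance that takes in the size of their changes as well as their course. Genes were not scaled to a common spread, so members that rise and fall together can still lie far apart. The SD of log2 CPM was 4.21 for Il12b, 3.89 for Il27, 3.16 for Il23a and 1.39 for Ebi3. The root mean square difference of log2 CPM, after each gene was centred on its own mean, was smallest for Il12b and Il27 (0.69) and largest for Il12b and Ebi3 (2.84), as a description over 24 libraries. Among 13290 genes outside the family, the 3 nearest to Il12b were Il1a, which encodes interleukin-1 alpha (0.61), Ptgs2, which encodes cyclooxygenase-2 (0.65), and Gbp5, an interferon-inducible GTPase (0.68). The nearest to Il27 were the chemokine gene Ccl7 (0.48), the collagenase gene Mmp13 (0.49) and Cish, a STAT5 target of the SOCS family (0.54). Lif (0.74), the hyaluronan synthase gene Has1 (0.80) and Csf2, which encodes GM-CSF (1.02), were nearest to Il23a. Il20rb (0.27), Fam129a (0.28) and 4933432I03Rik (0.30) were nearest to Ebi3, whose own SD was 1.39 against 4.21 for Il12b.

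Of 5 receptor genes of the family, 3 passed the filter and 1 of the 3 was called, Il6st, which encodes gp130, the chain that IL-27 shares with IL-6. It fell with LPS 10 ng/ml in KO cells to 44.3 ± 9.04 CPM, against 168 ± 42.7 CPM untreated (log2 -1.92 ± 0.20, adjusted p = 3.71e-07), where 21.6% of genes were called lower. It fell in WT cells to 39.0 ± 4.25 CPM, against 149 ± 10.2 CPM untreated (log2 -1.93 ± 0.20, adjusted p = 1.85e-07 by edgeR; SD, n = 3 each), where 26.1% were called lower. With FN it also fell in KO cells (-1.36 ± 0.20, adjusted p = 6.91e-05), where 7.17% were called lower. Il27ra, the other IL-27 receptor chain, averaged 0.184 to 0.599 CPM over the groups, Il12rb1, the chain shared by the IL-12 and IL-23 receptors, did not pass the filter, and Il23r had a count in at most 2 libraries of a group.

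Of 8 JAK and STAT genes that carry signals from these receptors, 2 rose with FN in KO cells, 5 with LPS 10 ng/ml in KO cells and 8 with LPS 10 ng/ml in WT cells, with median log2 changes of 0.28, 1.12 and 1.60 beside -0.02, -0.01 and -0.01 over all genes, of which 9.23%, 21.2% and 23.3% were called higher. The change with FN in KO minus that in WT was called lower for 6 of the 8, against 11.3% of all genes. Stat3, which carries gp130 signals, had 155 ± 28.2 CPM in KO cells and 408 ± 46.6 CPM in WT cells with LPS 10 ng/ml (SD, n = 3 each), and its change differed between the genotypes (log2 -1.48 ± 0.21, adjusted p = 4.51e-04 by edgeR).

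Of 25 transcription factors known to act on the family's genes, 24 were in the table and tested. With FN in KO cells 12 rose and 4 fell, with LPS 10 ng/ml in KO cells 15 rose and 4 fell, and with LPS 10 ng/ml in WT cells 17 rose and 1 fell; with library totals as the scale the WT split was 16 and 6. Over all genes, 9.23% rose and 7.17% fell with FN in KO cells, 21.2% and 21.6% with LPS 10 ng/ml in KO cells, and 23.3% and 26.1% with LPS 10 ng/ml in WT cells. These shares are not for library totals, which moved the median of all genes by -0.80 to 0.68 over 17 comparisons. Median log2 changes of the factors were 0.54, 1.12 and 2.03. Nfkb2, which encodes the NF-kB subunit p52, rose by 2.78 with FN and 4.08 with LPS 10 ng/ml in KO cells and by 4.24 with LPS 10 ng/ml in WT cells on the log2 scale, and Nfkbiz, a nuclear IkB protein, rose by 3.96, 5.26 and 4.62. Irf1, an interferon regulatory factor that acts on Il12a and Il27, reached 987 ± 322 CPM in KO cells and 2621 ± 108 CPM in WT cells with LPS 10 ng/ml. That level was called lower in KO cells (log2 -1.41 ± 0.27, adjusted p = 0.00135 by edgeR), but the difference in its change was not called (-1.21, adjusted p = 0.0758). By edgeR the difference in its change was called lower with FN (-4.14 ± 0.39, adjusted p = 1.07e-06) and with LPS 0.1 ng/ml (-3.27 ± 0.39, adjusted p = 1.6e-04).

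Irf8, an interferon regulatory factor required for IL-12 p40 in myeloid cells, moved in opposite directions in KO and WT cells with LPS 10 ng/ml. It fell in KO cells with LPS 10 ng/ml to 129 ± 19.4 CPM, against 335 ± 8.41 CPM untreated (log2 -1.37 ± 0.15, adjusted p = 5.40e-07). It rose in WT cells to 1857 ± 305 CPM, against 311 ± 20.6 CPM untreated (2.58 ± 0.15, adjusted p = 3.03e-10; SD, n = 3 each). The difference between these changes was -3.95 ± 0.21 (adjusted p = 3.10e-09 by edgeR). A link between Irf8 and the level of Il12b was not tested. With FN the KO level was 189 ± 15.7 CPM and the WT level 2003 ± 320 CPM, and the changes differed by -3.52 ± 0.21 (adjusted p = 2.08e-08 by edgeR). With LPS 0.1 ng/ml Irf8 had 258 ± 22.0 CPM in KO cells and 244 ± 25.3 CPM in WT cells. There the difference between its changes was -0.03 ± 0.20 and was not called. Nfil3, a basic leucine zipper factor that acts on Il12b, had 28.4 ± 8.86 CPM in KO cells and 78.6 ± 11.3 CPM in WT cells with LPS 10 ng/ml, and its changes differed by -1.98 ± 0.35 (adjusted p = 0.00232). In the comparison of the changes with FN, 12 of the 24 factors were called lower and 1 higher, where 11.3% of all genes were called lower and 11.8% higher. Library totals gave 11 and 6 factors, on a scale to which these shares of all genes do not apply.

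Among 12 genes listed as restraining the family's cytokines, which include the inflammasome gene Nlrp3, 10 rose and none fell with FN in KO cells. With LPS 10 ng/ml 11 of them rose in KO cells, and 10 rose and 1 fell in WT cells. Over all genes 9.23%, 21.2% and 23.3% rose and 7.17%, 21.6% and 26.1% fell. Il10, which encodes an inhibitor of p40 transcription, had 1.12 ± 0.49 CPM in KO cells with LPS 10 ng/ml and 0.0897 ± 0.0359 CPM in untreated KO cells, and 4.40 ± 1.70 CPM in WT cells with LPS 10 ng/ml and 0.0495 ± 0.0023 CPM in untreated WT cells. Socs3, an inhibitor of gp130 signals, rose by 7.85 in KO cells and by 8.54 in WT cells on the log2 scale. Trib1, a pseudokinase named here after its values were seen, went apart: with LPS 10 ng/ml it rose in KO cells (1.35 ± 0.24, adjusted p = 1.63e-04) and fell in WT cells (-0.81 ± 0.24, adjusted p = 0.00861), and the changes differed by 2.16 ± 0.34 (adjusted p = 0.00116 by edgeR).

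**Figure D5:**
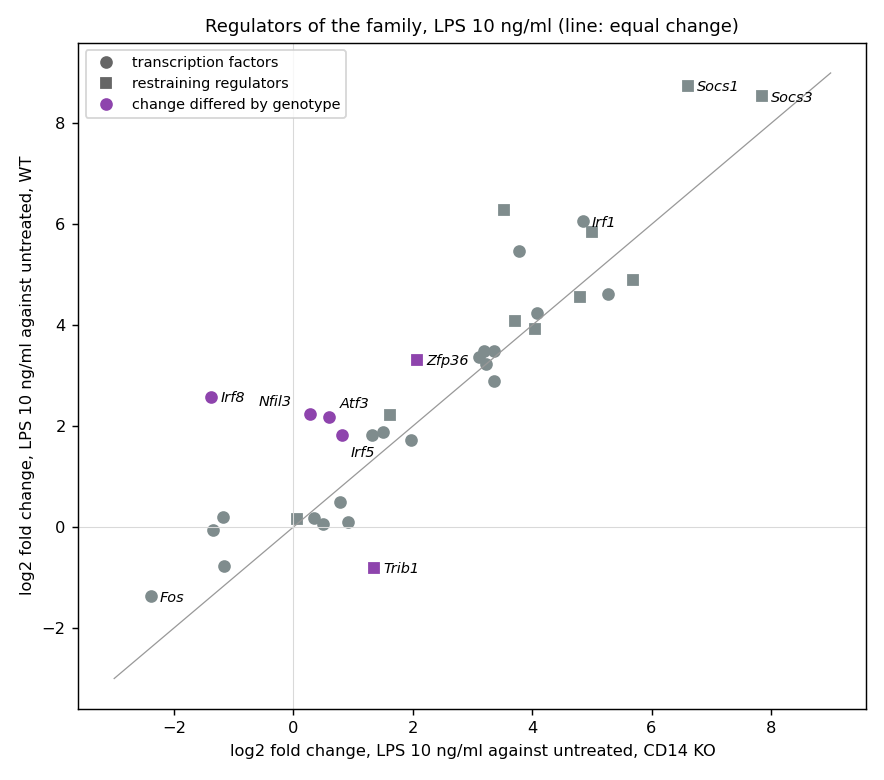
Log2 fold change with LPS 10 ng/ml against untreated cells in CD14 KO (horizontal) and in WT (vertical), as edgeR estimates from 3 libraries a group. Circles are 24 transcription factors and squares are 12 genes listed as restraining regulators. Purple marks genes whose change differed between the genotypes, and the line marks equal change. Irf8 lay at -1.37 in KO cells and 2.58 in WT cells, and Trib1 at 1.35 in KO cells and -0.81 in WT cells.

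Of 10 partners and relatives outside the family, 8 were tested; 4 rose with FN in KO cells, 7 with LPS 10 ng/ml in KO cells and 8 with LPS 10 ng/ml in WT cells, and the change with FN in KO minus that in WT was called lower for all 8. The shares of all genes were 9.23%, 21.2% and 23.3% called higher, and 11.3% called lower for the difference. Il6, a gp130 cytokine, had 2.29 ± 1.11 CPM in KO cells and 616 ± 114 CPM in WT cells with FN, while Il1b and Tnf reached 588 ± 91.5 and 1286 ± 311 CPM in KO cells and 4903 ± 802 and 7475 ± 1539 CPM in WT cells with FN (SD, n = 3 each). Of 11 genes of the TLR4 complex and its adaptors, 10 were tested, and 4 rose with FN in KO cells, 5 rose and 1 fell with LPS 10 ng/ml in KO cells, and 6 rose and 1 fell in WT cells. The same 9.23%, 21.2% and 23.3% of all genes were called higher there, and 7.17%, 21.6% and 26.1% were called lower. The split in WT cells turned on the scale, with 1 higher and 5 lower in WT cells when library totals were used. Those shares of all genes are not for library totals, which moved the median of all genes by -0.80 to 0.68 over 17 comparisons. Tlr4 was not called in any of these 3 comparisons, and averaged 58.1 to 101 CPM over the groups.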

How the data were processed

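RNA of 24 microglial samples (8 groups of 3) was sequenced on an Illumina HiSeq2000 after TruSeq RNA library preparation, per the labels' protocols. The deposited gene counts were used as the authors left them; the submitters' processing notes name the build mm10, the aligner Bowtie2 (version 2.1.0), the read counter HTSeq (version 0.5.4) and DESeq, with no settings or use of strand. A second deposited table, whose values are a signal scaled by the authors, held 12889 genes and matched the counts times 1 factor per library within 0.144; it holds 4 members and not Il12a. Counts were fitted over all 24 libraries with edgeR 4.0.16 (R 4.3.3): TMM scaling, filterByExpr (min.count 10, min.total.count 15), robust quasi-likelihood tests on 16 residual degrees of freedom for 17 contrasts, Benjamini-Hochberg adjustment within each, and calls at an adjusted p under 0.05. The prior count was 0.125, and each SE is the log2 change over the root of F. CPM are on TMM-scaled totals. Coordinates and exon lengths came from GENCODE on GRCm38, promoters from RefSeq (GRCm38.p6; 3 of 5 members matched). The test was checked on simulated counts drawn independently for each library. That check does not cover libraries of the same replicate number deviating together, as described below.

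The members, gene lists and tests were chosen with earlier results of these data known, and the named genes by a fixed rule: all members; from each list, up to 4 called genes of the largest change and up to 2 uncalled ones of the highest level in 4 contrasts, short lists whole; and the 3 genes nearest to each member. Over 9582 genes with a mean of at least 5 CPM, libraries of the same replicate number deviated together from their group means, with correlations of 0.67 to 0.969 within a genotype and 0.225 to 0.895 between genotypes, against -0.803 to 0.769 for different numbers; the numbers, taken from the labels, were therefore treated as pairing the samples in an alternative fit. No 2 replicates agreed within sampling noise. Alternatives were other scalings and filters, DESeq2 1.42.0, limma 3.58.1 on the deposited normalized values, replicate blocks, fits on the groups compared alone, and leaving out each library or the 3 rich in Rn45s.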

Additional observations from a re-analysis of the deposited data

Results flagged for a closer look

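In 6 cases the change of a member with a stimulus differed between the genotypes by the test of that difference (edgeR, adjusted over all genes). Each of the 4 tested members was tested with FN and with both doses of LPS. Over all genes 11.3% were called lower with FN, 2.11% with LPS 0.1 ng/ml and 3.32% with LPS 10 ng/ml. For Il12b the change in KO minus that in WT cells was, on the log2 scale, -6.33 after FN (adjusted p = 3.64e-05) and -5.12 at LPS 0.1 ng/ml (adjusted p = 0.0021). For Il27 it was -7.57 after FN (adjusted p = 5.47e-07), -4.87 at LPS 0.1 ng/ml (adjusted p = 2.41e-04) and -2.67 at LPS 10 ng/ml (adjusted p = 0.0105). For Ebi3 it was -1.69 with FN (adjusted p = 0.0129). No flag was set for single libraries that stand apart within groups of 3 libraries, though each library was left out in turn.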

How the results depend on the processing

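In 17 comparisons the number of the 4 tested members called stayed within 1.5 times under RLE scaling, library totals, no filter, the filter of 5 CPM in 3 libraries, DESeq2, limma with a pseudocount of 1, the replicate block over all libraries and without the 3 libraries rich in Rn45s. It did so too under the block nested in genotype, which gives no value for KO against WT within a condition, in the other 13 comparisons. It moved to 2 for FN in KO cells under limma with a pseudocount of 10 and on the groups compared alone, to 2 for KO against WT at LPS 0.1 ng/ml on the groups alone, and to 2 for KO against WT at LPS 10 ng/ml under limma with a pseudocount of 10. Leaving out 1 library gave 2 to 4 called members for KO against WT at LPS 0.1 ng/ml. The cause of these moves was not tested.

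Signs turned only for changes near 0 that were never called and, in limma, for Il23a. The Ebi3 difference of changes with LPS 10 ng/ml was -0.024 under RLE and under DESeq2, -0.019 under the replicate block over all libraries, -0.0054 under the filter of 5 CPM, -0.10 under limma with a pseudocount of 10, and -0.28 to 0.31 leaving out 1 library; that of Il23a was 0.87 and 0.64 under limma with pseudocounts of 1 and 10. In WT cells with FN against LPS 10 ng/ml, Il27 stood at -0.0012, -0.0059, -0.0056 and -0.0034 under the filter of 5 CPM, limma with pseudocounts of 1 and 10, and without the libraries rich in Rn45s, and Il12b at -0.12 under the last; leaving out 1 library gave -0.12 to 0.15 for Il27, -0.14 to 0.30 for Il12b, -0.14 to 0.30 for Il23a and -0.11 to 0.21 for Ebi3.

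The replicate block over all libraries changed no call of a member in the 17 comparisons, and the block nested in genotype none in its 13. Over all genes the nested block raised the number called by over 1.5 times in 10 of 13 comparisons, most for the difference of changes with LPS 0.1 ng/ml (1779 with the block, 305 without). Library totals did so in 6 of 17 (4097 against 2114 for KO against WT at LPS 10 ng/ml) and shifted the median gene by -0.80 to 0.68; groups compared alone lowered it in 6 (240 against 1237 for KO against WT at LPS 0.1 ng/ml).

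The ratio of Il12b to Il23a moved to 7.37 in WT cells with FN with the longest transcript as length, and to 7.42 in WT cells with LPS 0.1 ng/ml when libraries with 3 counts entered, which in KO cells with FN added 8.43 and 7.83 to the single value of 3.35. Depth limits Il12a, with at most 14 counts in a library, and Il23a outside FN in WT cells and LPS 10 ng/ml.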
